A study of Homo sapiens with 9 samples.

Results

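The 6 craniofacial homeobox genes ALX1, ALX4, PRRX1, PRRX2, MSX1 and MSX2 were followed in human cranial neural crest cells (CNCCs) after removal of SOX9 protein. The genes were chosen by name, with earlier results of these data known. All 6 of 6 were found among the 18970 gene symbols of both count tables. After 24h without SOX9 protein, newly made MSX1 RNA was 2.30-fold higher and had the smallest p of the 12037 genes tested. PRRX2 rose 2.29-fold. ALX1 was fitted at 1.28-fold, just inside the threshold of 0.1 (DESeq2 adjusted p = 0.0967), and MSX2, a gene with few reads, at 2.28-fold. The ALX1 call held in 6 of 12 alternative fits and the MSX2 call in 4 of 12. PRRX1 and ALX4 did not pass the test. MSX1 was also 1.63-fold higher at 3h, and no member passed the test downwards at either time.

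Each of these genes codes for a transcription factor that binds DNA through a homeodomain. ALX1, ALX4, PRRX1 and PRRX2 belong to the paired-like homeodomain family, whereas MSX1 and MSX2 form the muscle segment homeobox family and act largely as repressors. All of them are expressed in facial mesenchyme derived from the neural crest: ALX1 and ALX4 pattern the midface and the frontonasal region, PRRX1 and PRRX2 act together in growth of the jaw and the skull base, MSX1 is needed for the palate and the teeth, and MSX2 is known for its role in the bones of the skull vault. MSX genes are classical targets of bone morphogenetic protein (BMP) signalling.

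The CNCCs came from the established human embryonic stem cell line H9, edited so that both SOX9 alleles carried an FKBP12-F36V, mNeonGreen and V5 tag. The tag lets the small molecule dTAGV-1 bring SOX9 protein to a ubiquitin ligase for degradation. Every group carried this tag, was at passage 4 in a medium with BMP2 and the GSK3 inhibitor CHIR-99021, and was labelled during the last 2 h with 100 uM 4-thiouridine (4sU), an analogue of uridine. The 0h group received DMSO, and the 3h and 24h groups received 500 nM dTAGV-1 for 3 h and 24 h. The labels give a relative SOX9 level of 100% at 0h and 0% at the later times. Each of the 3 groups held the same 3 cultures, S9CC13_R6, S9CC47_R5 and S9CC47_R6. These names are read here as 2 clones of the tagged line (13 and 47) and 2 differentiation batches (R5 and R6). The labels do not spell this out. Untagged cells given dTAGV-1 were not analysed here, so an effect of the compound itself cannot be told apart from loss of SOX9.

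In SLAM-seq, incorporated 4sU is alkylated and then read as C in place of T. Reads with such a conversion (T>C reads) come from RNA made during labelling, apart from sequencing errors and variants that read the same way. Total reads count all RNA of a gene, old and new. The 9 libraries held between 16955633 and 28782678 total reads in genes and between 3130673 and 5475800 T>C reads, which was 15.9% to 21.3% of the total. All 11 cranial neural crest markers exceeded 1 CPM (reads of a gene scaled to equal library totals) in every library, led by NR2F1 and VIM, and summed to between 3556 and 3751 CPM at 0h and to between 4033 and 4567 CPM at 24h. Among pluripotency markers POU5F1 had at most 1 read in a library and TDGF1 none, but LIN28A averaged 294 CPM and DPPA4 37.9 CPM, and the 6 summed to between 350 and 414 CPM at 0h and to between 281 and 306 CPM at 24h. SOX1, TYR, HOXB2 and HOXD3 had no reads, and 8 HOX genes of paralogue groups 1 to 4 summed to at most 0.59 CPM. The 12 cartilage markers, led by COL2A1 and COL11A1, summed to between 548 and 603 CPM at 0h and to between 321 and 404 CPM at 24h. The 8 Schwann cell and melanocyte markers, led by ERBB3, went from between 14.2 and 20.0 CPM to between 3.16 and 4.58 CPM, and the 8 neural markers, led by TUBB3 and DCX, from between 90.0 and 97.6 CPM to between 65.2 and 86.5 CPM. The part of such shifts in the values below was not tested. SOX9 T>C reads were higher by 0.77 on the log2 scale at 3h and by 1.15 at 24h, which does not check the depletion, since dTAGV-1 acts on the protein.

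On hg38, MSX1 (ENSG00000163132.8) lies at chr4:4859665-4863936 and MSX2 (ENSG00000120149.9) at chr5:174724582-174730896, both on the plus strand with 2 exons. PRRX2 (ENSG00000167157.11) lies at chr9:129665647-129722674 on the plus strand, where the antisense lncRNA PRRX2-AS1 overlaps the gene but not its last exon. PRRX1 (ENSG00000116132.12) is at chr1:170662728-170739421 on the plus strand. There the lncRNA ENSG00000271811, on the same strand, overlaps the gene but not its last exon. ALX1 (ENSG00000180318.4) is at chr12:85280220-85301784 on the plus strand and ALX4 (ENSG00000052850.8) at chr11:44260440-44310139 on the minus strand. PRRX1, ALX1 and ALX4 have 4 exons each. No other annotated gene overlapped the last exon of any of the 6, which is where 3′ end libraries place most of their reads.

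The promoters of the 3 members with the highest fitted change at 24h are shown because these genes carry the larger changes reported below. Each sequence runs from 250 bases before to 50 bases after the gene's start in RefSeq on GRCh38.p14, plus strand, and capitals mark every match to a searched motif. These were the SOX core ACAAT and the SOX word ACAAAG, the homeodomain core TAATTA and the TATA box TATAAA, each on both strands. No searched motif overlapped another in these windows.
MSX1 promoter, chr4:4859415-4859714: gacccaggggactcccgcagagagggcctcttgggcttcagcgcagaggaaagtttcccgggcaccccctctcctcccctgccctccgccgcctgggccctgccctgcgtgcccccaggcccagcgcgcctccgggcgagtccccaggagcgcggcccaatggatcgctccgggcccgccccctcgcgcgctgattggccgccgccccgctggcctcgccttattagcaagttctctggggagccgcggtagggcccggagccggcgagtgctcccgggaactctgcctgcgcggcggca
PRRX2 promoter, chr9:129665397-129665696: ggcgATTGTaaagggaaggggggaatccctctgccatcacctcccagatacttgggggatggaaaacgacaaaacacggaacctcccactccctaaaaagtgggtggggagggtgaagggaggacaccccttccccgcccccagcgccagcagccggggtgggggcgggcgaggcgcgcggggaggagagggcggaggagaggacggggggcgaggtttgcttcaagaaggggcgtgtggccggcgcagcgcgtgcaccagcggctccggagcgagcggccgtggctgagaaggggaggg
MSX2 promoter, chr5:174724332-174724631: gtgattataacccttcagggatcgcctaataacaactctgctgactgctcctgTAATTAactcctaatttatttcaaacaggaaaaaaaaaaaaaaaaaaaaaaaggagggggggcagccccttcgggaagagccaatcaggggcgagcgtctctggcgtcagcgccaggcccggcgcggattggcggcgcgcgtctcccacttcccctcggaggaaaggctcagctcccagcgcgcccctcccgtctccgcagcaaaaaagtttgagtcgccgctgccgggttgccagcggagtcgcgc
The MSX1 window held none of the 4 motifs and was 74.7% G or C, against a median of 58.3% over 27303 promoters of the same length. In the PRRX2 window (68.3% G or C), ACAAT occurred once, on the minus strand and so printed as ATTGT, 246 bases before the start. MSX2 (57.0% G or C) had a TAATTA 197 bases before the start. PRRX1, the other member with a promoter in that table, was at 53.0% G or C and held ACAAT once, again as ATTGT, at 217 bases before the start. ACAAT was found in 28.0% of all 27303 promoters, ACAAAG in 16.0%, TAATTA in 4.98% and TATAAA in 11.95%. Such matches describe the letters only and are not binding sites.

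At 0h the members spanned a wide range of total read levels, given here in CPM and without division by length, since each transcript yields reads from its 3′ end. MSX1 was the most abundant with 625 ± 41.5 CPM (SD, n = 3), at percentile 98.1 of the 11710 genes tested for total reads. ALX4 followed with 268 ± 25.2 CPM and PRRX1 with 65.9 ± 9.75 CPM. ALX1 had 35.4 ± 4.86 CPM, PRRX2 had 17.7 ± 5.67 CPM and MSX2 had 1.69 ± 0.938 CPM. The 3 cultures of one gene did not overlap with those of its neighbour in this order, so each step exceeded the spread at 0h. At 24h, PRRX2 (48.5 to 52.6 CPM) and ALX1 (44.8 to 50.0 CPM) did overlap. MSX2 rested on 22 to 142 total reads in a library, against 11395 to 37751 for MSX1, and its values carry a correspondingly large counting error.

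MSX1, a repressor with a role in palate and tooth development, showed the clearest change. Normalized T>C reads (counts divided by a size factor that puts libraries on one scale) in S9CC13_R6, S9CC47_R5 and S9CC47_R6, the order kept below, were 5925, 7291 and 6513 at 0h. At 3h these cultures gave 9921, 12425 and 9685, and at 24h they gave 13757, 16886 and 15224. All 3 cultures were higher at 3h than any at 0h and higher again at 24h, with no overlap between groups. The log2 fold change in T>C reads was 0.70 ± 0.0748 (SE) at 3h, with a DESeq2 adjusted p of 1.36e-17. At 24h it was 1.20 ± 0.0779, with a DESeq2 adjusted p of 7.20e-50, and within the single cultures it was 1.22, 1.21 and 1.22. The step from 3h to 24h was itself 0.50 ± 0.0837 (DESeq2 adjusted p = 1.98e-06). In such bulk samples, a change in the number of cells that express a gene and a change in RNA per cell cannot be told apart. Total MSX1 reads rose by nearly the same amounts, by 0.69 ± 0.0706 at 3h (adjusted p = 3.32e-19) and by 1.17 ± 0.0735 at 24h (adjusted p = 1.03e-53). In each of the 12 alternative fits of T>C reads MSX1 passed the test at 3h, at 24h and between them, and it passed in each of the 11 of total reads at 3h and 24h.

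**Figure D1:**
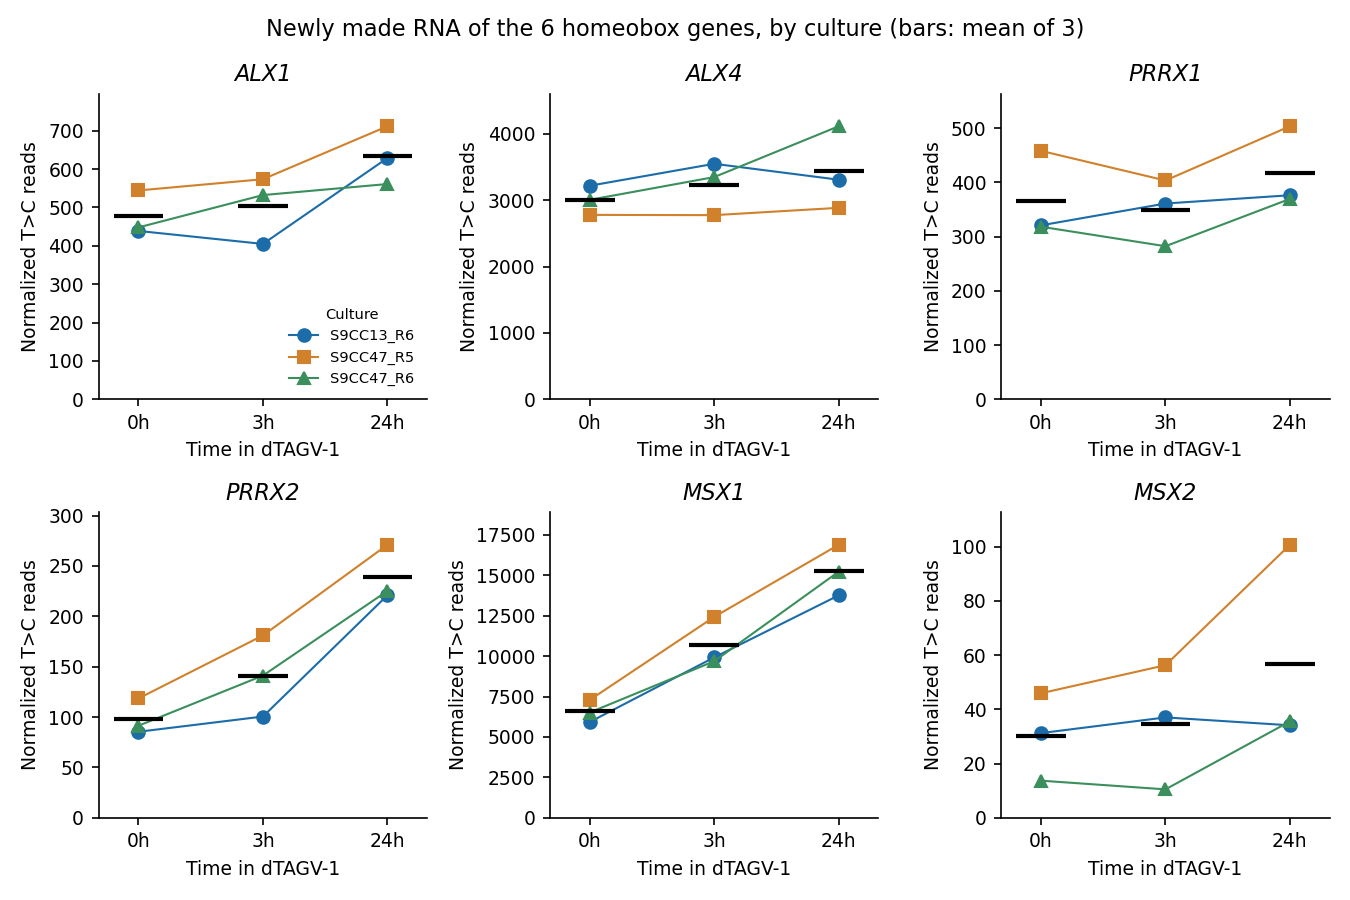
Normalized T>C reads (vertical axes, linear, from 0, on a scale of its own for each gene) of the 6 homeobox genes at 0h, 3h and 24h of dTAGV-1 (horizontal axes, not to scale), with one coloured line per culture and black bars at the mean of 3 cultures. MSX1 means went from 6576 to 10677 to 15289 and PRRX2 means from 98.4 to 141 to 239, while for ALX4 and PRRX1 the cultures at 24h overlap with those at 0h.

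MSX2, the other muscle segment homeobox gene, was near the limit of detection. Its unnormalized T>C reads by culture were 30, 38 and 18 at 0h, then 28, 65 and 9 at 3h and 36, 97 and 48 at 24h. The groups overlapped, and S9CC13_R6 hardly moved, with a within-culture log2 change of 0.13 in normalized T>C reads at 24h against 1.13 in S9CC47_R5 and 1.38 in S9CC47_R6. The fitted change at 24h was 1.19 ± 0.403 (DESeq2 adjusted p = 0.073). With culture as a replicate block, in exchange for batch and the surrogate variable, the change was 0.92 and the call was lost (DESeq2 adjusted p = 0.202). The call was also lost with batch alone (0.83, DESeq2 adjusted p = 0.335). A filter of at least 1 count lost it too (1.15, DESeq2 adjusted p = 0.117). Leaving out S9CC13_R6 (1.34) or S9CC47_R5 (1.42) had the same result. With culture as a block the call was lost without S9CC13_R6 (1.26), S9CC47_R5 (0.82) or S9CC47_R6 (0.67). It held in 4 of 12 alternative fits. At 3h the estimate was -0.12 ± 0.415 (adjusted p = 0.998), with a 95% interval from -0.94 to 0.69, so a change was not detectable at this depth. Total MSX2 reads rose by 1.14 ± 0.333 at 24h (DESeq2 adjusted p = 0.0101) and were higher than at 0h in 3 of 3 cultures, but that call too was lost without S9CC13_R6 (1.44) and without S9CC47_R5 (0.97), and with culture as a block without any one culture (0.81 to 1.32).

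PRRX2, a paired-related factor of facial and limb mesenchyme, was fitted at about the same change as MSX1 at 24h, from a far lower level. The normalized T>C reads by culture were 85.4, 119 and 91.4 at 0h, then 101, 181 and 141 at 3h and 221, 271 and 225 at 24h. All 24h values lay above every value at 0h and 3h, whereas 3h and 0h overlapped. The log2 fold change was 1.19 ± 0.198 at 24h, with a DESeq2 adjusted p of 2.52e-07, and 0.55 ± 0.196 at 3h, with an adjusted p of 0.20. At 3h it was higher in 3 of 3 cultures, and edgeR's quasi-likelihood test gave an adjusted p of 0.0873. Without S9CC13_R6, which leaves 2 samples a time, the 24h change was 1.22 but had a DESeq2 adjusted p of 0.482. The step from 3h to 24h was 0.64 ± 0.208 (adjusted p = 0.148) and passed with culture as a replicate block (0.78, DESeq2 adjusted p = 0.00756).

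Total PRRX2 reads rose by 1.32 ± 0.143 at 24h (DESeq2 adjusted p = 4.64e-18) and passed in each of the 11 alternative fits. In CPM the totals were 12.4, 23.7 and 17.1 at 0h, 14.9, 27.1 and 29.8 at 3h, and 48.5, 51.7 and 52.6 at 24h. The cultures lay closer together at 24h than at 0h, with an SD of 2.14 CPM against 5.67 CPM. At 3h the total was called higher by 0.50 ± 0.139 (adjusted p = 0.0234), a call that was lost with culture as a replicate block (0.42, DESeq2 adjusted p = 0.612), without S9CC13_R6 (0.42) and without S9CC47_R5 (0.50), and that fell to 0.25 with culture as a block and without S9CC47_R6 (DESeq2 adjusted p = 0.885).

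PRRX1, the closest relative of PRRX2, did not pass the test in T>C reads. Its normalized T>C reads were 321, 458 and 318 at 0h, 361, 404 and 282 at 3h, and 376, 504 and 370 at 24h, with S9CC47_R5 highest at each time. The groups overlapped at every time. By the fit, the log2 fold change was -0.10 ± 0.134 at 3h (adjusted p = 0.994) and 0.25 ± 0.137 at 24h (adjusted p = 0.424), with a 95% interval at 24h from -0.02 to 0.52. In total reads PRRX1 was called higher at 24h by 0.40 ± 0.108 (DESeq2 adjusted p = 0.0038), yet the normalized totals of 1526, 1571 and 1219 at 0h and 1730, 1978 and 1262 at 24h overlapped. With culture as a replicate block the change was 0.19 and the call was lost (DESeq2 adjusted p = 0.411). The call was also lost with batch alone (0.20, DESeq2 adjusted p = 0.632) and without S9CC13_R6 (0.37). With culture as a block it was lost without S9CC13_R6 (0.19), S9CC47_R5 (0.11) or S9CC47_R6 (0.26). It held in 5 of 11 alternative fits. The difference between PRRX1 and PRRX2 was not tested.

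ALX1, a factor of the frontonasal region, was not called at 3h and was called higher at 24h. Normalized T>C reads by culture were 439, 544 and 448 at 0h, 405, 573 and 532 at 3h, and 629, 711 and 561 at 24h. The 24h values lay above all values at 0h but overlapped with those at 3h. The 24h change was 0.36 ± 0.127, just inside the threshold with a DESeq2 adjusted p of 0.0967. A filter on mean counts (20 or more) moved it outside (0.35, DESeq2 adjusted p = 0.142), as did leaving out S9CC13_R6 (0.33) or S9CC47_R5 (0.32). In total reads the change was 0.35 ± 0.108 (adjusted p = 0.0152), again without overlap between 0h and 24h, and again lost without S9CC13_R6 (0.24) or S9CC47_R5 (0.37). With culture as a block, both calls were lost without any one culture (0.36 to 0.45 in T>C reads and 0.35 to 0.44 in total reads).

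ALX4, which acts with ALX1 in the same region, showed no called change in any comparison of times. Its normalized T>C reads were 3216, 2778 and 3004 at 0h, 3547, 2774 and 3347 at 3h, and 3307, 2884 and 4112 at 24h. The groups overlapped throughout, and the highest 24h value came from S9CC47_R6, where the within-culture log2 change was 0.45 against 0.04 in S9CC13_R6 and 0.05 in S9CC47_R5. The fitted change at 24h was 0.17 ± 0.0975 (DESeq2 adjusted p = 0.482), with a 95% interval from -0.03 to 0.36, which leaves out a change as large as that fitted for MSX1.

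Counted together, 1 of the 6 members was called higher in T>C reads at 3h (MSX1) and 4 of 6 at 24h (MSX1, PRRX2, MSX2 and ALX1), with 0 of 6 called lower at either time. Over all genes tested, 1.01% were called higher and 0.789% lower at 3h, and 2.38% higher and 2.59% lower at 24h. The median log2 fold change of the members at 24h was 0.77, beside 0.00 over all genes tested. For 24h against 3h, 1 of 6 was called higher, beside a background of 0.54%. In total reads, 2 of 6 were called higher at 3h beside 1.11% of all genes, and 5 of 6 at 24h beside 7.11%. Both measures gave all 6 members a positive log2 fold change at 24h. The 3h and 24h comparisons share the 0h samples. The members were chosen with earlier results of these data known, so the counts beside the background are not a test of the set.

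**Figure D2:**
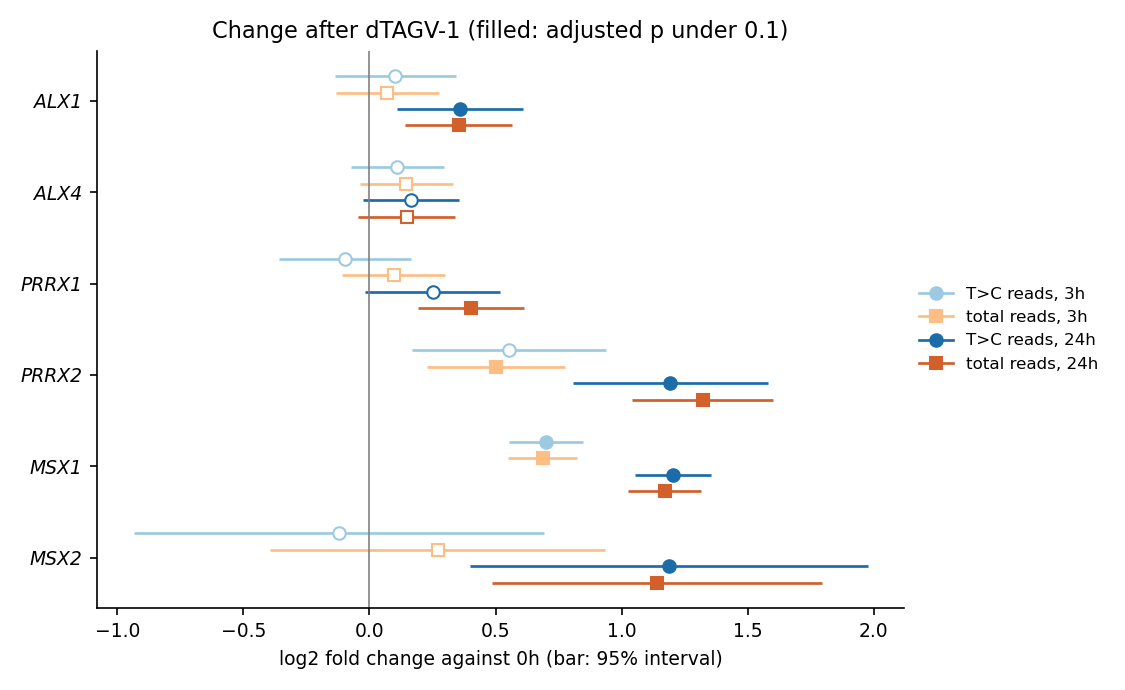
Log2 fold changes against 0h (horizontal axis) of the 6 homeobox genes in T>C reads (circles) and total reads (squares) at 3h (light) and 24h (dark), with bars for the 95% interval and filled symbols for an adjusted p under 0.1. MSX1 is filled in 4 of 4 comparisons, at 0.70 and 0.69 at 3h and 1.20 and 1.17 at 24h, and ALX4 in 0, while the bars of MSX2 are the widest.

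The T>C share, the part of a gene's total reads that carried a conversion, differed widely between members at 0h. It was 82.8% ± 10.9 (SD, n = 3) for MSX2, 62.7% ± 5.25 for ALX1, 52.0% ± 3.34 for ALX4 and 48.9% ± 4.05 for MSX1. PRRX2 and PRRX1 were lower, at 26.6% ± 3.85 and 26.0% ± 5.32. Over 11582 genes with enough reads the median share was 27.1%, with quartiles of 16.6% and 40.9%, so PRRX1 and PRRX2 lay near the middle (percentiles 47.7 and 49.1) and ALX1 and MSX2 near the top (percentiles 96.3 and 99.8). SOX9 itself was at 59.5% ± 2.77. ALX4 and MSX1 overlapped in their shares at 0h, as did PRRX1 and PRRX2, whereas every share of these paired-related genes lay below every share of the other 4. A high share goes with RNA that is made and lost quickly, and also with a T-rich sequence and a longer label, so shares rank genes only roughly.

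The T content of the transcript ends followed the same order only in part. Of the last 250 bases of the canonical transcript, 37.2% were T in MSX2, 33.2% in MSX1, 32.8% in PRRX1, 31.6% in ALX1, 27.2% in ALX4 and 23.6% in PRRX2, against a median of 30.8% over 20020 transcripts. MSX2 was highest in both T content and T>C share, and PRRX2, lowest in T content, had a share close to that of PRRX1. PRRX1 had about the same T content as MSX1 and a lower share. The part of T content in the shares was not tested. The ends that slamdunk counted were not used here and may differ from the 250 bases taken.

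The shares were then followed after dTAGV-1. The MSX1 share by culture was 44.8%, 52.9% and 48.8% at 0h, 40.2%, 47.8% and 48.0% at 3h, and 49.2%, 54.2% and 54.4% at 24h. It was lower at 3h in all 3 cultures and higher at 24h in all 3, with groups that overlapped. ALX1, ALX4, PRRX1 and MSX2 shares were likewise lower at 3h in each culture, with means that went from 26.0% to 20.2% for PRRX1 and from 82.8% to 65.0% for MSX2. By comparison, the share over the whole library was lower at 3h in S9CC13_R6 (15.9% against 18.5%) and S9CC47_R5 (18.1% against 20.1%) and higher in S9CC47_R6 (19.5% against 18.8%). The mean PRRX2 share went from 26.6% at 0h to 23.5% at 24h, but the cultures differed in direction. It fell in S9CC13_R6 (31.1% to 22.0%) and S9CC47_R6 (24.3% to 22.5%) and rose in S9CC47_R5 (24.4% to 26.2%). The lowest MSX2 share, 40.9% in S9CC47_R6 at 3h, came from 22 reads and has a 95% Wilson interval from 23.3% to 61.3%, covering counting error only. A two-sided exact permutation test of the 12 comparisons with 0h gave p from 0.2 to 0.7 (0.686 to 0.7 after Benjamini-Hochberg adjustment), but 3 samples against 3 cannot give a p below 0.1 and the test does not use the pairing by culture, so it could not have shown a change.

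**Figure D3:**
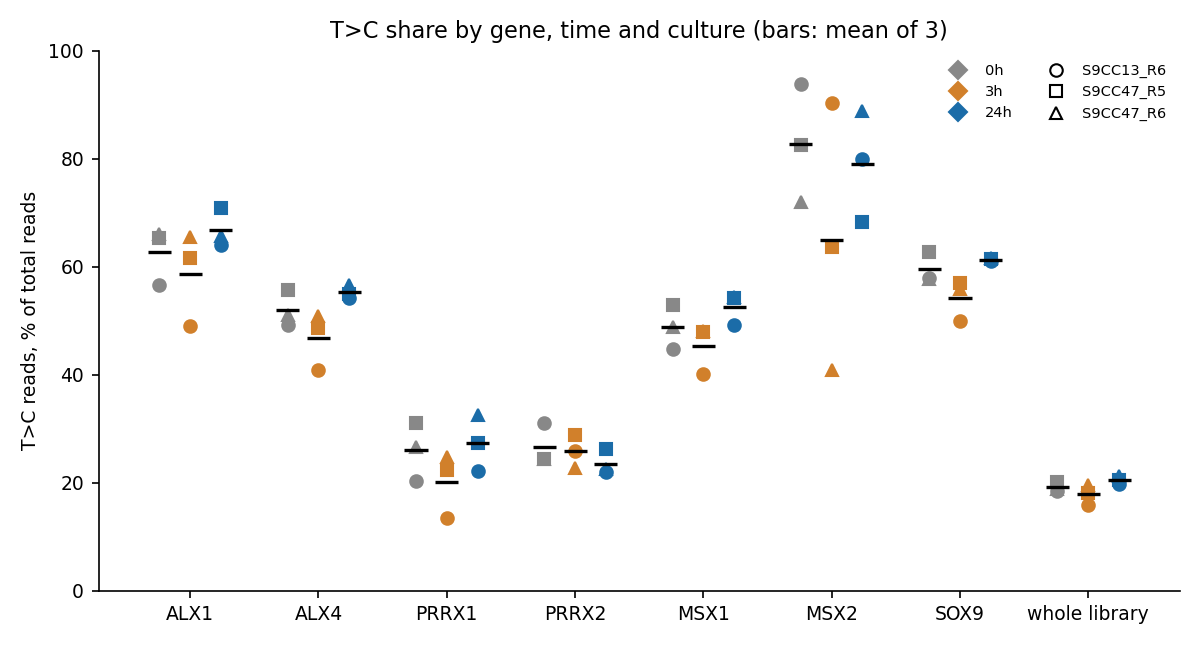
T>C reads as a percentage of total reads (vertical axis, 0 to 100%) for the 6 homeobox genes, SOX9 and the whole library, at 0h (grey), 3h (orange) and 24h (blue), with one symbol shape per culture and black bars at the mean of 3. The PRRX genes stay between 13.4% and 32.5% at all times, while ALX1, ALX4, MSX1 and MSX2 stay at or above 40.2%.

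The 3 cultures also differed from each other in some members. MSX2 was highest in S9CC47_R5, with normalized total reads of 59.1, 84.8 and 159 at 0h, 3h and 24h, against 19.4, 25.9 and 44.4 in S9CC47_R6 and 32.3, 34.4 and 43.5 in S9CC13_R6. Between these batches of one clone (S9CC47_R5 against S9CC47_R6), MSX2 differed by 1.73 ± 0.345 on the log2 scale with time in the fit (DESeq2 adjusted p = 0.000136). PRRX1 differed by 0.53 ± 0.137 (adjusted p = 0.0109), so that 2 of 6 members were called, beside 1.65% of all genes in either direction. Both calls held without the 0h samples (MSX2 at 1.77 and PRRX1 at 0.62) and were lost without the 3h samples (1.74 and 0.51) and without the 24h samples (1.67 and 0.48). ALX4 ran the other way, by -0.33 ± 0.113 (adjusted p = 0.155), and was called without the 0h samples (-0.40).

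Between clones of one batch (S9CC47_R6 against S9CC13_R6), PRRX1 was called lower by -0.59 ± 0.136 (DESeq2 adjusted p = 0.00216), which was 1 of 6 members beside 3.38% of all genes. Its normalized totals were 1219, 1147 and 1262 in S9CC47_R6 and 1526, 2259 and 1730 in S9CC13_R6, without overlap. Without the 3h samples, which include the 2259, the difference was -0.39 and was not called, and in T>C reads it was -0.13 (DESeq2 adjusted p = 0.891). MSX1 differed by 0.06 ± 0.0895 between clones and by 0.17 ± 0.0895 between batches, with neither called. Each culture is a single differentiation sampled at 3 times, so these tests compare the named cultures and not clones or batches at large.

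Across the 9 libraries, the members' log2 normalized T>C reads followed each other to different degrees. PRRX2 and MSX1 were the most alike (r = 0.95), followed by ALX1 and PRRX2 (r = 0.91) and PRRX1 and MSX2 (r = 0.91). ALX4 and PRRX1 were the least alike (r = -0.43). These points share cultures and times, so the values describe these libraries only. Among the 8675 other genes whose normalized T>C reads averaged 50 or more, the nearest to MSX1 were FGF18, the Notch ligand JAG1 and FBLIM1 (r from 0.96 to 0.98), and the nearest to PRRX2 were JUN, PTGS2 and CCND2 (r from 0.97 to 0.99). The closest to ALX1 was PFKFB3 (r = 0.95), to ALX4 KLF13 (r = 0.94), to PRRX1 LDHA (r = 0.91) and to MSX2 ISCA1 (r = 0.95). Each was picked as the highest of that many correlations over only 9 libraries, so a high r is no sign of a link, and none was tested.

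Of 25 other paired-like homeobox genes, 6 passed the filter for T>C reads. SHOX2, a factor of the palate and the limb, rose by 0.84 ± 0.198 at 24h (DESeq2 adjusted p = 0.00142) and was at 0.43 ± 0.189 at 3h (adjusted p = 0.49). Of the DLX genes, which pattern the jaw, 3 of 6 passed the filter and 0 of 3 were called in T>C reads at either time.

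Of the BMP pathway genes, 27 of 32 passed the filter for T>C reads. At 24h 6 were called higher and 2 lower, beside 2.38% and 2.59% of all genes tested. Their median log2 fold change was 0.49. The targets ID1 and ID2, inhibitors of basic helix-loop-helix factors, rose by 1.14 ± 0.274 (DESeq2 adjusted p = 0.00196) and 1.10 ± 0.238 (adjusted p = 0.000319). The ligand BMP4 rose by 0.69 ± 0.122 (adjusted p = 2.13e-06), whereas the ligand BMP7 fell by 0.74 ± 0.116 (adjusted p = 4.38e-08). At 3h, 1 of the 27 was called higher, BMP4 at 0.70 ± 0.117 (adjusted p = 7.41e-07), and 1 lower, BMP7 at -0.44 ± 0.110 (adjusted p = 0.00798). Over all genes tested, 1.01% were called higher and 0.789% lower at 3h. ID1 and ID2 were then at 0.15 ± 0.265 and 0.20 ± 0.229 and were not called. A part of BMP signalling in the MSX1 change was not tested. In total reads at 24h, 13 of 25 were called higher, beside 7.11% of all genes tested, and 2 were called lower.

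Genes that pattern the jaw, palate and midface changed in both directions. Of 29 listed, 21 passed the filter for T>C reads, and 2 were called higher and 2 lower at 24h, with 0 called at 3h. Over all genes tested, 2.38% were called higher and 2.59% lower at 24h. The 24h calls were PAX3 (0.51 ± 0.146, DESeq2 adjusted p = 0.0193) and GLI3 (0.31 ± 0.101, adjusted p = 0.0617) on the higher side, and FOXC1 (-0.62 ± 0.0958, adjusted p = 1.92e-08) and TBX2 (-0.45 ± 0.159, adjusted p = 0.097) on the lower side. Their median was 0.10, beside 0.77 for the 6 members and 0.49 for the BMP pathway genes, and the lists were not tested against each other.

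**Figure D4:**
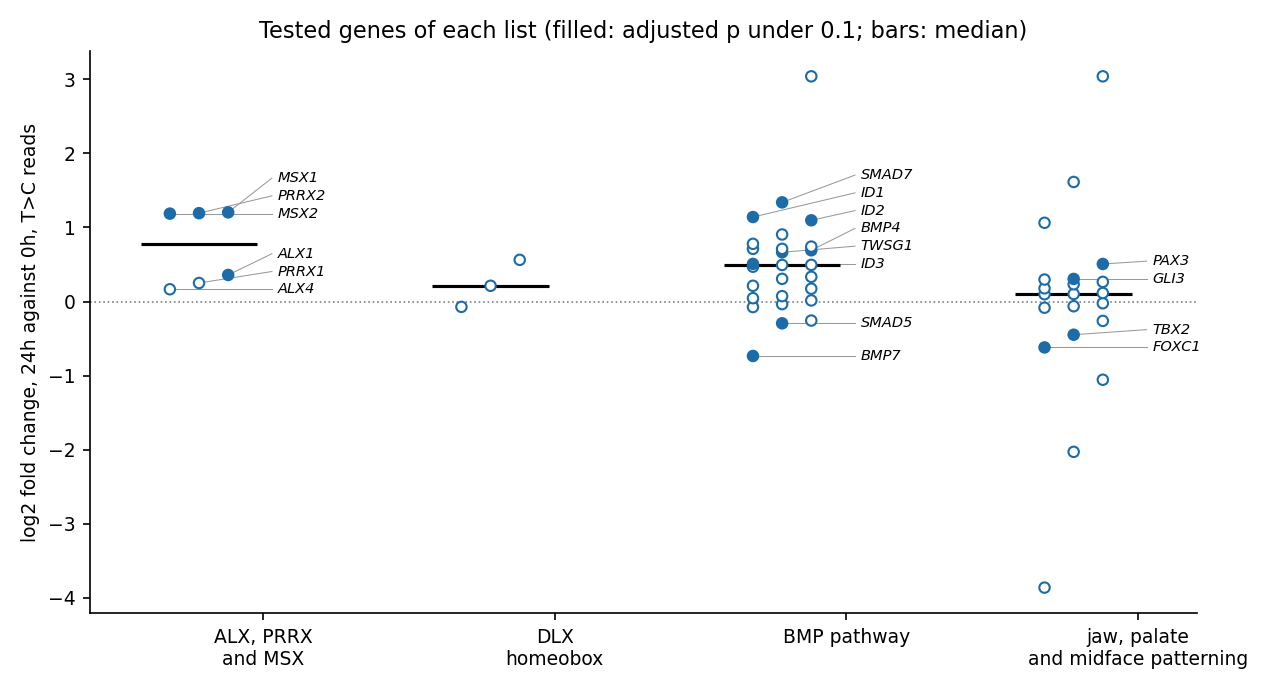
Log2 fold changes in T>C reads at 24h against 0h (vertical axis) of the tested genes of the members and of 3 lists (horizontal axis), filled where the adjusted p was under 0.1, with black bars at the list median and names for all members and for the called genes of the other lists. The medians are 0.77 for the ALX, PRRX and MSX genes, 0.21 for DLX, 0.49 for BMP pathway and 0.10 for jaw, palate and midface genes.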

How the data were processed

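The deposited files hold raw counts of total reads and of T>C reads by gene symbol, with 9 columns each and without normalization or stated molecular identifiers. According to the methods, the authors trimmed the first read of each pair, then mapped and counted it with slamdunk 0.4.3. Uneven T content and sequence variants can therefore change T>C shares between genes, but hardly between times. The methods name hg38.

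Counts of all 9 samples were fitted with DESeq2 1.42.0 in R 4.3.3, on differentiation batch, 1 surrogate variable (svaseq, sva 3.50.0) and time, over protein-coding genes that reached 1 CPM in 3 or more samples. Genes with a Benjamini-Hochberg adjusted p under 0.1 were called, and every adjusted p not credited to edgeR comes from DESeq2. Cultures were compared with time and culture as terms. Annotation came from GENCODE, matched by symbol. Alternatives were edgeR 4.0.16, TMM factors, size factors from total reads, other filters, batch alone, culture as a block, and leaving out each culture. Cultures pair the samples across times because clone and batch are shared, and their deviations from group means correlated at 0.18 on average in T>C reads (9 pairs, -0.13 to 0.57). The fit was tested on simulated data. Replicates are cultures of one stem cell line, so p-values do not cover other lines. Those of the time comparisons rest on the scatter left after batch, the surrogate variable and time. Those of the culture comparisons rest on the scatter left after time and culture.

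Named genes were all 6 members, SOX9, up to 4 called genes per list whose normalized T>C reads averaged 50 or more, the leading or absent markers, and the genes most like each member (3 for each were computed). Some genes that this rule names are not reported here. POU5F1, named with its reads, was added after values were seen. The members and lists were chosen with earlier results of these data known.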

Additional observations from a re-analysis of the deposited data

Results flagged for a closer look

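MSX1 is listed because its change after dTAGV-1 differed between the time points. Its T>C reads rose by 0.70 on the log2 scale at 3h and by 1.20 at 24h, and the difference of 0.50 passed the test of 24h against 3h (DESeq2 adjusted p = 1.98e-06), with 3 of 3 cultures higher at 24h (0.47 in S9CC13_R6, 0.44 in S9CC47_R5 and 0.65 in S9CC47_R6).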

How the results depend on the processing

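MSX1 kept its direction and its calls under every alternative run, while ALX1, PRRX1, PRRX2 and MSX2 each lost at least 1 call under some alternative. PRRX2 in total reads at 3h held in 4 of 11. Of the member log2 fold changes under alternatives, 354 kept direction and call, 45 lost the call, 8 gained one and 13 changed sign. For T>C reads at 3h against 0h, edgeR called 2 members. For 24h against 3h, 2 members were called with culture as a replicate block and 2 with batch alone, and 3 with edgeR and 3 with size factors from total reads. For total reads at 3h, the replicate block and batch alone each called 1. In the comparison of clones T>C reads called 0, and in that of batches edgeR called 1. Leaving out each culture gave 1 to 2 members for T>C reads at 24h, 2 to 3 for total reads at 24h, and 1 for total reads at 3h. Leaving out each time gave 0 to 1 for clones and 0 to 3 for batches. MSX2 at 3h in T>C reads turned from -0.12 to 0.13 with the replicate block and 0.16 with batch alone, and ran from -0.19 to 0.26 over cultures left out. Near 0, ALX1 at 3h ran from -0.015 to 0.16 in T>C reads and from -0.052 to 0.14 in total reads, PRRX1 at 3h from -0.18 to 0.0027, ALX4 at 24h against 3h from -0.024 to 0.18, and over times left out ALX1 (-0.098 to 0.077) and ALX4 (-0.11 to 0.15) between clones and PRRX2 (-0.023 to 0.22) between batches. The causes were not tested. Without S9CC47_R6 the surrogate variable could not be estimated and that fit was not run, so leaving out cultures with culture as a block was added after seeing the data. The 2 samples a time that then remain leave few degrees of freedom. Depth limits MSX2 in particular.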
